A study of Mus musculus with 48 samples.

Results

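The 10 genes Lyz2, C1qa, C1qb, C1qc, Mrc1, Arg1, Cd68, Adgre1, Csf1r and Ly6c2, which mark tumor macrophages and monocytes, were followed through every sorted population of the series. They were chosen by symbol from 34932 quantified genes. The 48 libraries form 12 groups of 4, from the combinations of sort (CD8+ T cells, CD4+ T cells, or the CD45+CD4-CD8- remainder, here the CD45 sort), tissue and genotype. Tumor-infiltrating lymphocytes (TILs) came from subcutaneous tumors of B16F10, a mouse melanoma line, and node cells from tumor-draining inguinal lymph nodes (TDLNs). All mice were C57BL/6J and bore tumors. The labels give no ages, and the methods give only a range of weeks that covers all experiments. WT mice were the controls, and Yap-cKO mice (CD4Cre Yap flox) carried loxP-flanked Yap with Cre under the Cd4 promoter, which drives deletion in T cells and not specifically in macrophages or monocytes. That line also carries a Cre-dependent EYFP reporter, and littermates served as controls, according to the methods. The study asked what Yap in T cells does to T cells in tumors and nodes. For these genes the design allows comparisons of tissue, of genotype and of sort, including how much of their RNA was counted in the T cell sorts.

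Tumor macrophages derive largely from circulating monocytes, which enter the tissue and mature under the growth factor CSF1. Csf1r encodes the receptor for that factor, Adgre1 the surface protein F4/80, and Cd68 a lysosomal membrane protein. Lyz2 encodes lysozyme, an antibacterial enzyme of macrophages, monocytes and neutrophils. C1qa, C1qb and C1qc encode the chains of C1q, which starts the classical complement pathway and is made mainly by macrophages. Mrc1 (CD206, a mannose receptor) and Arg1 (arginase, which breaks down arginine) are linked with alternatively activated macrophages. Ly6c2 encodes a surface antigen of inflammatory monocytes that some CD8+ T cells also carry.

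Positions are those of GENCODE M21 on GRCm38. The C1q genes lie side by side on the minus strand of chromosome 4, C1qb at 136880129 to 136886187, C1qc at 136889804 to 136893065 and C1qa at 136895917 to 136898803. Lyz2 lies on chromosome 10 at 117277331 to 117282321 beside its paralog Lyz1 (117287797 to 117292868), and Ly6c2 on chromosome 15 at 75108158 to 75111970 with its paralog Ly6c1 at 75044018 to 75048830. Mrc1 is on chromosome 2 (14229392 to 14332057), Arg1 on chromosome 10 (24915221 to 24927484), Cd68 on chromosome 11 (69664213 to 69666153) and Adgre1 on chromosome 17 (57358691 to 57483527). The end of Csf1r overlaps Hmgxb3 on the opposite strand, and the counts do not use strand.

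Lyz2 and Ly6c2 each have a near-identical paralog, so the division of reads within each pair is uncertain. Over 444 coding bases Lyz2 and Lyz1 differ at 22 (95.0% identity), and over 393 coding bases Ly6c2 and Ly6c1 differ at 9 (97.7% identity). To show how few bases separate them, the coding part of 1 exon is given for each gene, 5′ to 3′ on the coding (minus) strand, with capitals at the bases that differ. These are exon 2 of Lyz2 (chr10:117280641-117280805) and Lyz1 (chr10:117291029-117291193), and exon 4 of Ly6c2 (chr15:75108546-75108751) and Ly6c1 (chr15:75045405-75045610).
Lyz2: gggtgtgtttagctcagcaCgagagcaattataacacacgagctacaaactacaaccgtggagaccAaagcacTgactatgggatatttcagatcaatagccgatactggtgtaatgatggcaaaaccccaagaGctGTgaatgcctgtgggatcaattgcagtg
Lyz1: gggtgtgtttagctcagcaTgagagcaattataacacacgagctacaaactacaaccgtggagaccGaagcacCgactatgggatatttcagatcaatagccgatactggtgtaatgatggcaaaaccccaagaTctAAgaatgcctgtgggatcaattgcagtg
Ly6c2: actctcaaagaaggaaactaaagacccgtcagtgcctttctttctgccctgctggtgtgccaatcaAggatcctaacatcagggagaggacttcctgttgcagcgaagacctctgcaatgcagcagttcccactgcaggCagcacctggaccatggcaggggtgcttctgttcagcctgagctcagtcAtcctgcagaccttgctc
Ly6c1: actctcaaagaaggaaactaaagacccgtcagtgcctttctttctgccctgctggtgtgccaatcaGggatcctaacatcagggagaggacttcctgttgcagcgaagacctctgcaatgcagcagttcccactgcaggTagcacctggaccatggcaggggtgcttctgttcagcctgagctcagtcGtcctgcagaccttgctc
The stretches differ at 6 of 165 and at 3 of 206 bases. Adding the paralog's reads changed the log2 fold change between genotypes in CD8 TILs from 1.33 to 1.36 for Lyz2 and from 0.99 to 0.91 for Ly6c2.

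RefSeq promoter sequences on GRCm38.p6, 250 bases before to 50 after each start, were used for 6 of the 10 genes (Mrc1, C1qb, C1qc, Lyz2, Cd68 and Ly6c2). C1qa, Arg1 and Adgre1 had no entry, and Csf1r was left out of this part. PU.1 is a transcription factor of the myeloid lineage, and the core of its motif, GAGGAA, was searched on both strands. It was found in 5 of the 6 genes, not in Lyz2, and in 28.3% of all 32851 promoters of the same 300 bases. The C/EBP motif TTGCNNAA, also searched on both strands, was found in Cd68 alone among the 6 and in 10.8% of all promoters. The 250 bases before the start are shown for C1qb and C1qc, whose levels moved together, and for Cd68, with capitals at the matches, GAGGAA or its reverse complement in each and TTGCTAAA in Cd68. They are on the minus strand at chr4:136886201-136886450, chr4:136892915-136893164 and chr11:69666171-69666420.
C1qb: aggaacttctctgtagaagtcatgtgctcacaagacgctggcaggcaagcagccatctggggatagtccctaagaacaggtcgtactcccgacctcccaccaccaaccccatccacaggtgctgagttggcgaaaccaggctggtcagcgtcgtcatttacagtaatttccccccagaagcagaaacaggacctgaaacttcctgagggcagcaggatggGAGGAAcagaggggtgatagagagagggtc
C1qc: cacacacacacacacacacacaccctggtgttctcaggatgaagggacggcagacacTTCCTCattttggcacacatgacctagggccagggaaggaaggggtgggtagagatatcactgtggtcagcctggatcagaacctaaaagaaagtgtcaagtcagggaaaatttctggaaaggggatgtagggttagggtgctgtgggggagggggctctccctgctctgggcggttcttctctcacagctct
Cd68: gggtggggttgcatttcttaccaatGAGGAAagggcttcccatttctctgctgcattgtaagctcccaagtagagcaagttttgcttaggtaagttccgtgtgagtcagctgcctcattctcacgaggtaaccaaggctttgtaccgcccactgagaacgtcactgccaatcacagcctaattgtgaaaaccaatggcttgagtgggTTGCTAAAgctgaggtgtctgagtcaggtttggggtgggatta
The matches describe letters in these windows and were not tested as binding sites.

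Libraries held 12656302 to 24213689 counts on genes, so 3 counts, taken as the floor of detection, equal 0.124 to 0.237 CPM (counts scaled to a common library total). Levels are CPM after TMM scaling over all 48 libraries. They are relative to the other RNA of a library, so that fewer cells of a type and less RNA per cell cannot be told apart. A gene was called at an adjusted p under 0.05 with an absolute log2 fold change above 1 (edgeR's quasi-likelihood test, Benjamini-Hochberg adjustment over all tested genes). Whether libraries of different groups overlapped was not counted over all genes. Overlap therefore describes the named genes only, without a background share. WT CD45 TDLNs replicate 4 stood apart, with 9 of the 10 genes at 4.14 to 965 times the mean of the other 3 WT libraries. The tumor T cell sorts also differed between genotypes in markers of other cells. Summed melanoma genes were at 3981 to 18096 CPM in WT CD4 and CD8 TILs and at 46.1 to 2609 CPM in Yap-cKO CD4 and CD8 TILs, and 15 T cell genes at 1612 to 6325 and 5759.8 to 10749 CPM. The 4 Y-linked genes used as a covariate summed to 43.3 to 423 CPM in WT replicates 1 to 3 and to 2.51 to 19.0 CPM in WT replicate 4 and all Yap-cKO libraries. Genes of the Y chromosome are carried by males. Sex and genotype therefore cannot be told apart except through WT replicate 4, on which the covariate fit rests, and every genotype comparison carries this.

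The CD45 sort from tumors held the most RNA of these genes, with Ly6c2 as the exception. Compared per length, in the authors' TPM values (relative transcript abundance corrected for length, mean ± SD, n = 4), Lyz2 led in WT CD45 TILs at 19085 ± 1406. C1qb (1559 ± 525 TPM), Cd68 (1082 ± 76.6 TPM) and Ly6c2 (1033 ± 329 TPM) followed, and their libraries overlapped. C1qc (599 ± 175 TPM), C1qa (506 ± 186 TPM), Arg1 (448 ± 197 TPM) and Csf1r (355 ± 116 TPM) came next and also overlapped with one another. Adgre1 (117 ± 17.5 TPM) and Mrc1 (30.8 ± 12.2 TPM) were lowest and each stood apart from its neighbours. In Yap-cKO CD45 TILs Lyz2 was again highest (15584 ± 4956 TPM) and Mrc1 lowest (54.1 ± 8.61 TPM). The CD45 sort is a mixture. In tumors its T cell genes summed to 199 to 257 CPM, its neutrophil genes to 449 to 2222 CPM and its B cell genes to 303 to 1923 CPM, whereas in TDLNs B cell genes reached 9469 to 11337 CPM.

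**Figure D1:**
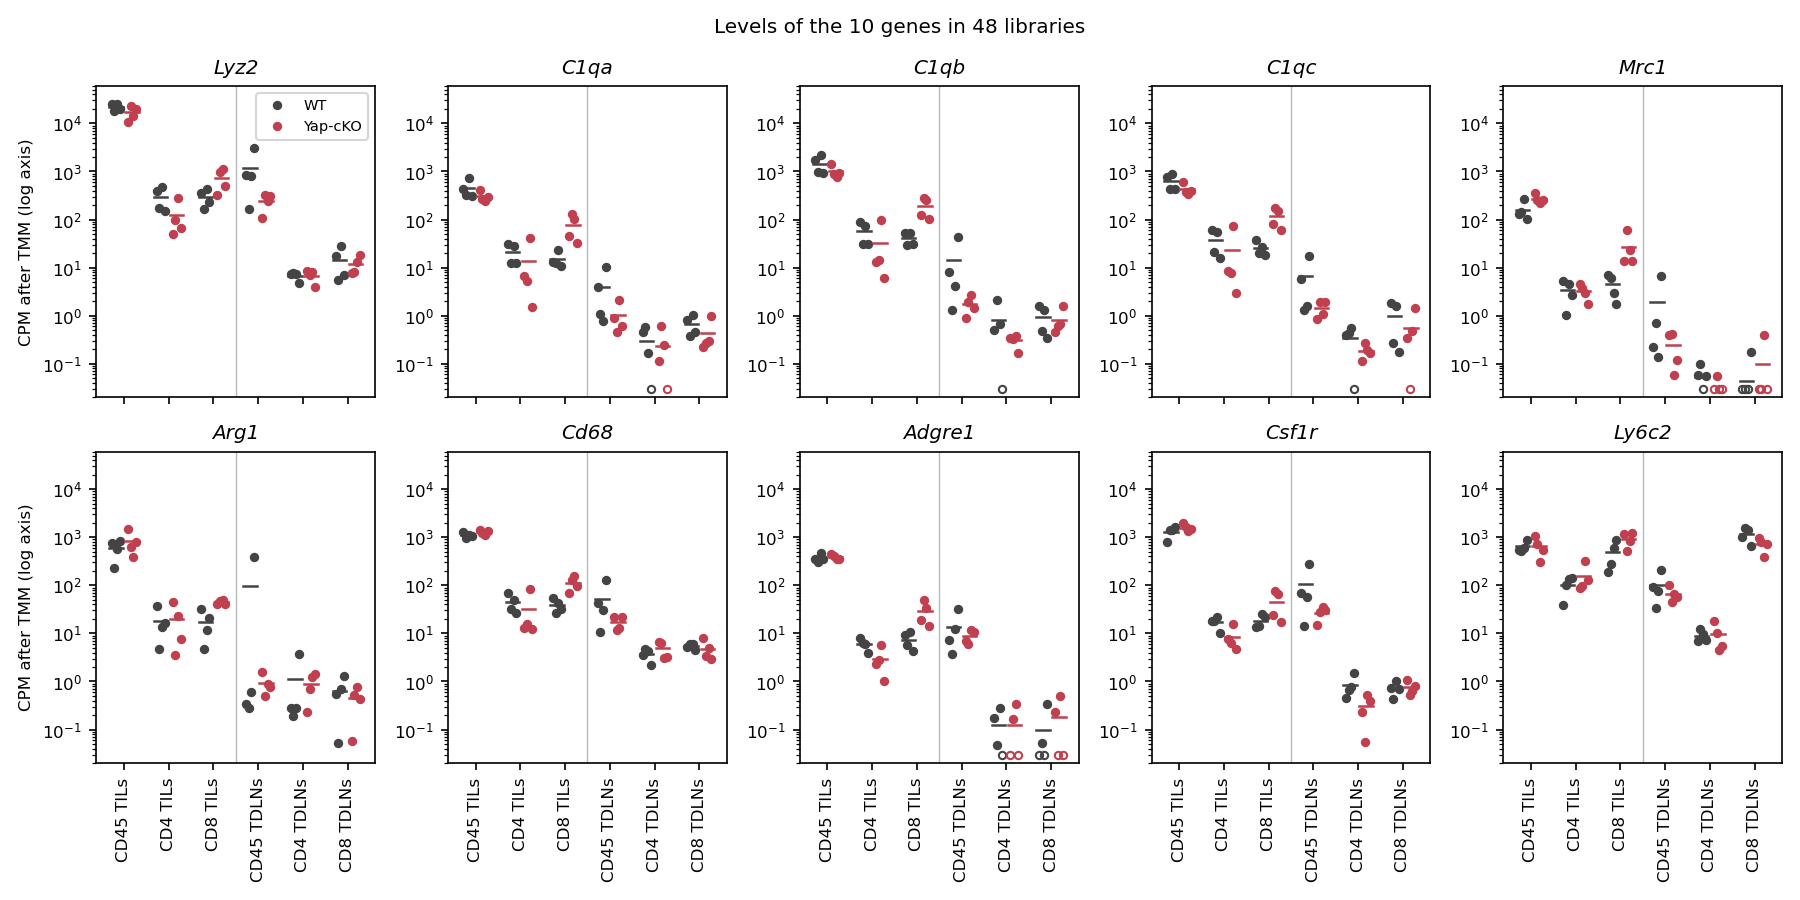
CPM after TMM scaling (log axis) of the 10 genes in each of the 48 libraries, by sort, tissue and genotype, with bars at group means and open symbols at the bottom for libraries at 0. Group means are highest in CD45 TILs for every gene except Ly6c2, which reached 1533 CPM in CD8 TDLN cells, and 1 node library of Arg1 (392 CPM) lies within the CD45 TIL range.

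Among the 8 CD45 TIL libraries the C1q chains varied together. Pearson's r over log2 levels was 0.995 between C1qb and C1qc, 0.958 between C1qa and C1qb, and 0.947 between C1qa and C1qc. Arg1 and Cd68 had r = 0.858 and Mrc1 and Adgre1 r = 0.711. Lyz2 had r = 0.305 with C1qc and -0.530 with Csf1r. These values describe 8 libraries of both genotypes that share a tissue and a preparation.

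In WT mice 8 of the 10 genes reached the count filter within the TDLN libraries alone. All 8 were called higher in CD45 cells of tumors than of TDLNs, beside 21.9% of all tested genes called higher. Mrc1 and Arg1 passed the filter only through the tumor libraries, so they are described below and not counted. C1qa was at 424, 322, 728 and 309.9 CPM in the 4 tumor libraries and at 3.98, 1.11, 0.792 and 10.2 CPM in the 4 node libraries. The groups did not overlap (log2 fold change 6.76, SE 0.853, adjusted p = 1.55e-04). The other C1q chains were close to it, C1qb at 6.63, SE 1.05 and C1qc at 6.52, SE 0.885. Mrc1, the mannose receptor, was at 132, 146, 264 and 105 CPM in tumors and at 0.224, 0.691, 0.140 and 6.73 CPM in TDLNs (6.36, SE 1.08). Smaller log2 fold changes were found for the lineage markers Adgre1 (4.67, SE 0.621), Cd68 (4.33, SE 0.665) and Csf1r (3.56, SE 0.760) and for Lyz2 (4.13, SE 0.738). Ly6c2, the monocyte antigen, had the smallest that was called (2.60, SE 0.491, adjusted p = 0.00153). Arg1 was not called. It was at 748, 229, 578 and 818 CPM in tumors and at 0.336, 0.276, 0.605 and 392 CPM in TDLNs, so that a single node library overlapped the tumor range (2.52, SE 1.79, adjusted p = 0.262). Without that library, WT CD45 TDLNs replicate 4, the log2 fold change of Arg1 was 10.43 and all 10 genes were called, beside 22.7% of all tested genes called higher. In that fit the filter of 4 libraries could not be met within TDLNs alone.

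In Yap-cKO mice 8 of the 10 genes reached the filter within the TDLN libraries alone. All 8 were called higher in CD45 TILs than in CD45 TDLN cells, beside 21.8% of all tested genes called higher. C1qa and Mrc1 passed the filter only through the tumor libraries, so their calls are not counted here. The tissues did not overlap for any of the 10 genes. Log2 fold changes ran from Ly6c2 (3.23, SE 0.382) and Adgre1 (5.41, SE 0.260) to Arg1 (9.69, SE 0.561) and Mrc1 (9.96, SE 0.419). Each value was above its WT counterpart, but the difference between the tissue effects, the interaction of tissue and genotype, was called for 0 of the 10 genes and for 0% of all genes. By edgeR 6 of the 10 interactions and 1246 of all genes had an unadjusted p under 0.05, and DESeq2 called 0 of the 10. The interaction was 3.55, SE 1.19, adjusted p = 0.365 for Mrc1 and 7.11, SE 2.23, adjusted p = 0.319 for Arg1. Without WT CD45 TDLNs replicate 4 it turned negative for Arg1 (-0.79), Adgre1 (-0.15) and Ly6c2 (-0.03).

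**Figure D2:**
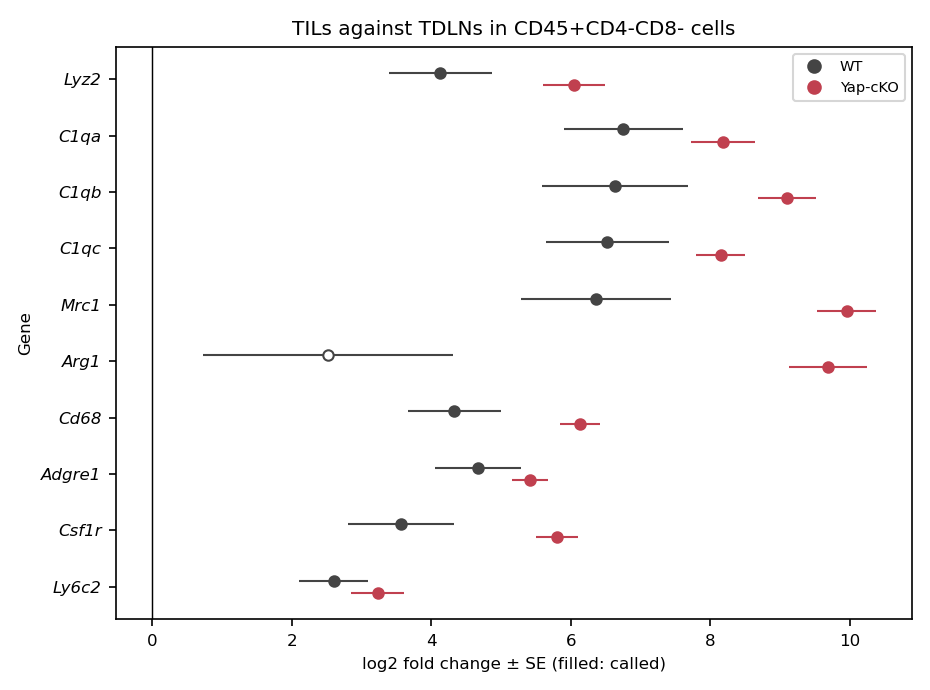
Log2 fold changes ± SE of TILs against TDLNs in the CD45 sort for the 10 genes in WT and Yap-cKO mice, filled where called. All points lie above 0, and Arg1 in WT mice (2.52, SE 1.79) is open with the widest error. Filled points include Mrc1 in both genotypes and C1qa in Yap-cKO mice, which passed the count filter only through the tumor libraries.

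Other macrophage genes were higher in WT CD45 TILs too. The counts below stand beside 21.9% of all tested genes called higher. Whether each listed gene reached the filter within the TDLN libraries alone was not counted. Some calls may therefore rest on genes that passed only through the tumor libraries. All 14 receptors and scavengers were called higher (median 4.51), among them Mertk, which helps clear dying cells (5.60, SE 0.417), and Clec7a, a receptor for fungal glucans (5.66, SE 0.514). Of 12 lysosome and lipid genes 10 were called higher and 1 lower (median 2.74), with Lpl, a lipase, at 5.51, SE 0.343 and Gpnmb, which melanoma cells also make, at 7.02, SE 0.322. Abca1, a cholesterol exporter, was the 1 called lower (-1.82, SE 0.266). Of 12 tested signaling and transcription factor genes 11 were called higher, Maf (2.68, SE 0.303) and Nr1h3 (3.68, SE 0.424) with the smallest p. Of 12 monocyte genes 9 were called higher, including Chil3 (4.42, SE 0.578) and Ms4a6c (4.07, SE 0.541). All 11 tested activation genes were called higher, including Nos2, which makes nitric oxide (7.70, SE 0.703), and the cytokine gene Tnf (3.96, SE 0.515). Of 8 tested sinus and resident macrophage genes 6 were called higher, including Siglec1 (3.21, SE 0.398) and Folr2 (6.24, SE 0.802). The median of all tested genes was -0.08.

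Across the 12 group means the genes most like the mean of the 10, among 9300 genes with at least 10 CPM on average, were Rab3il1 (r = 0.993), Msr1 (r = 0.989), Ccl9 (r = 0.987), Ccl2 (r = 0.987), Ms4a7 (r = 0.986), C5ar1 (r = 0.985), C3ar1 (r = 0.985), Il1rn (r = 0.982), Trem2 (r = 0.981) and Stab1 (r = 0.981). Of the 10 genes themselves, 9 had r between 0.945 and 0.990 with that mean, and Ly6c2 had 0.573. Each of the 10 is part of that mean, which raises its r.

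Between genotypes, 0 of the 10 genes were called in CD45 TILs, beside 0.991% of all tested genes, and the groups overlapped for all 10. DESeq2 also called 0. By edgeR 2425 of all 13628 tested genes had an unadjusted p under 0.05, and 1 of the 10 did. That gene was Mrc1, at 132, 146, 264 and 105 CPM across the WT libraries and at 365, 256, 217 and 256 CPM across those of Yap-cKO tumors (0.72, SE 0.283, adjusted p = 0.227, edgeR). The highest WT library lay above 3 of the 4 Yap-cKO libraries. The C1q chains had negative log2 fold changes. C1qc was at 774, 435, 892 and 424 CPM across the WT libraries and at 593, 372, 344 and 397 CPM across those of Yap-cKO tumors (-0.61, SE 0.284, adjusted p = 0.295, edgeR), with C1qa at -0.57, SE 0.289 and C1qb at -0.58, SE 0.312. Lyz2 was at 17919 to 25562 CPM in WT and at 10671 to 22826 CPM in Yap-cKO tumors (-0.39, SE 0.266). Cd68 (0.16, SE 0.160), Adgre1 (0.06, SE 0.173) and Csf1r (0.25, SE 0.214) had the smallest errors. Arg1 varied most, from 229 to 818 CPM in WT and from 383 to 1495 CPM in Yap-cKO tumors (0.43, SE 0.442). Ly6c2 differed by -0.01, SE 0.331.

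None of the other macrophage and monocyte lists had a call in CD45 TILs. Vegfa, an angiogenic factor, was not called (1.23, SE 0.299, adjusted p = 0.0768, edgeR). Trem2 had -0.66, SE 0.252 and Apoe, a lipid carrier, -0.75, SE 0.252. Melanoma genes summed to 1109.8 to 1840.4 CPM in WT and 134 to 517 CPM in Yap-cKO CD45 TILs, with 7 of 10 called lower. Their part in the values above was not tested.

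In CD45 TDLN cells 0 of 9 tested genes were called between genotypes, beside 0.0596% of all tested genes, and Mrc1 was below the count filter. DESeq2 called 0. All 9 log2 fold changes were negative, and by edgeR 7 of 9 had an unadjusted p under 0.05, beside 391 of all 13432 tested genes. Lyz2 was at 841, 168, 807 and 3017 CPM across the WT libraries and at 108, 327, 244 and 316 CPM across those of Yap-cKO nodes (-2.26, SE 0.719, adjusted p = 0.998, edgeR). Csf1r was at 70.3, 14.3, 56.5 and 282 CPM across the WT libraries and at 15.3, 27.4, 34.8 and 31.2 CPM across those of Yap-cKO nodes (-1.94, SE 0.723). The highest value of each gene was in WT replicate 4. Without it 2 of 9 genes had an unadjusted p under 0.05 by edgeR, the median log2 fold change was -0.75 in place of -1.95, and Adgre1 (0.22), Arg1 (1.23) and Ly6c2 (0.02) turned positive. With a covariate for Y-linked expression, which sets that library apart from the other WT libraries, 6 of 9 were called lower, beside 1.41% of all tested genes called lower in that fit.

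The T cell sorts hold RNA of these genes as well. In WT TILs all 10 genes were called higher in the CD45 sort than in the mean of the CD4 and CD8 sorts, beside 15.7% of all tested genes, and in Yap-cKO TILs 9 of 10 were, beside 17% of genes. For Ly6c2 the WT CD8 TILs overlapped the CD45 sort, at 75.1% of its mean (29.5% to 136%), and WT CD4 TILs were at 16.1%. In TDLNs the counts were 8 of 9 tested genes in WT (14% of genes) and 6 of 9 in Yap-cKO mice (12.2% of genes). Of these, 5 genes in each genotype reached the filter within the T cell libraries, with 4 of 5 called in WT and 3 of 5 in Yap-cKO mice, and the other 4 passed only with the CD45 libraries. As a percent of the CD45 mean of the same genotype, the median of the 9 genes other than Ly6c2 was 3.00% in WT CD4 TILs, 2.86% in WT CD8 TILs, 2.38% in Yap-cKO CD4 TILs and 8.74% in Yap-cKO CD8 TILs. All 9 were counted in each of the 16 tumor T cell libraries.

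The shares were uneven across the genes. In Yap-cKO CD8 TILs Csf1r stood at 2.87% of the CD45 level (1.08% to 4.69% over the 4 libraries) and Lyz2 at 4.34% (1.93% to 6.68%). Arg1 (5.45%), Adgre1 (7.39%), Cd68 (8.74%) and Mrc1 (10.1%) lay between. The C1q chains were highest, C1qb at 19.0%, C1qa at 25.3% and C1qc at 27.3% (14.5% to 40.4%). In WT CD8 TILs Lyz2 (1.36%) and Csf1r (1.41%) were also the lowest and C1qc (4.07%) the highest of the 9. These shares depend on the scaling. Without TMM factors they were higher in Yap-cKO CD8 TILs, at 4.26% for Csf1r, 6.36% for Lyz2, 8.23% for Arg1 and 40.6% for C1qc, and Ly6c2 went from 142% to 214%.

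**Figure D3:**
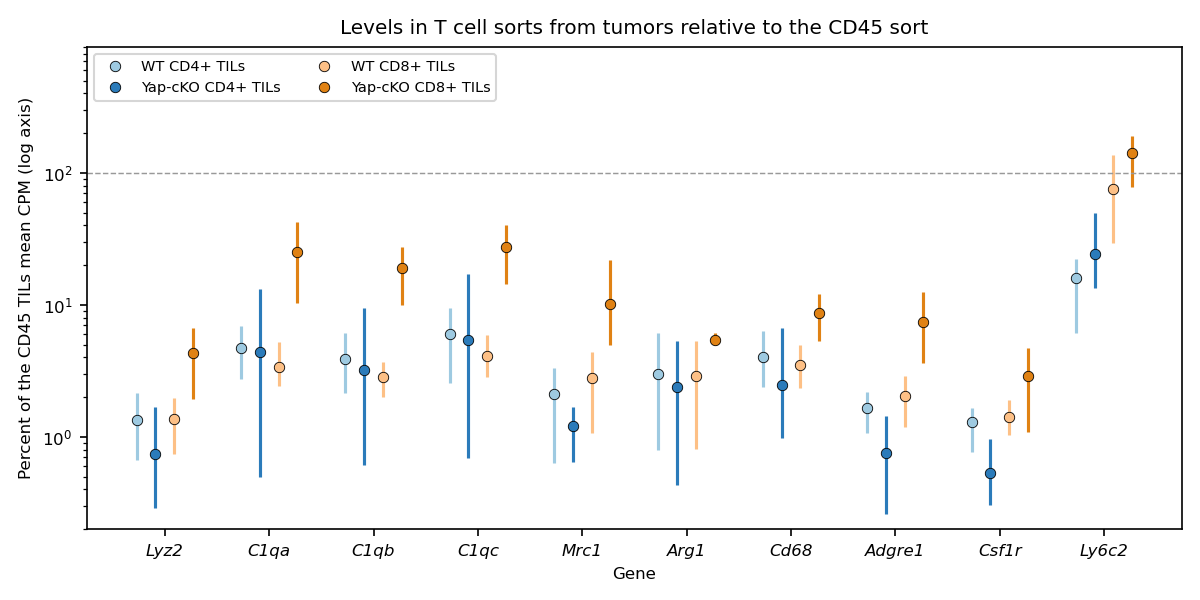
Mean level of each gene in the 4 T cell groups from tumors as a percent of its mean in the CD45 sort of the same genotype (log axis), with lines from the lowest to the highest library and a dashed line at 100%. Yap-cKO CD8 TILs have the highest mean for every gene, from Csf1r at 2.87% to Ly6c2 at 142%.

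Ratios within a library do not depend on scaling. The C1q chains together gave 8.34 to 14.9 counts per 100 Lyz2 counts in WT CD45 TILs and 6.67 to 23.1 in Yap-cKO CD45 TILs. In CD8 TILs they gave 24.0 to 38.3 in WT and 39.3 to 76.4 in Yap-cKO mice, above every CD45 library. In CD4 TILs they gave 33.5 to 45.8 in WT and 15.8 to 73.1 in Yap-cKO mice, where 1 library lay within the CD45 range. Csf1r overlapped between sorts, at 3.69 to 9.03 counts per 100 Lyz2 counts in WT CD8 TILs and 3.27 to 8.22 in WT CD45 TILs. Cd68 was apart between these sorts in WT mice, as the C1q chains were, at 9.91 to 15.97 counts per 100 Lyz2 counts in CD8 TILs and 10.6 to 18.8 in CD4 TILs against 4.27 to 5.46 in CD45 TILs. In Yap-cKO mice it was at 12.7 to 20.5 in CD8 and 15.6 to 29.6 in CD4 TILs against 5.29 to 13.4 in CD45 TILs, where the CD8 libraries overlapped. Neutrophils also express Lyz2, and neutrophil genes summed to 449 to 2222 CPM in CD45 TILs and 5.26 to 141 CPM in CD8 TILs. Their part in the ratios was not tested.

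**Figure D4:**
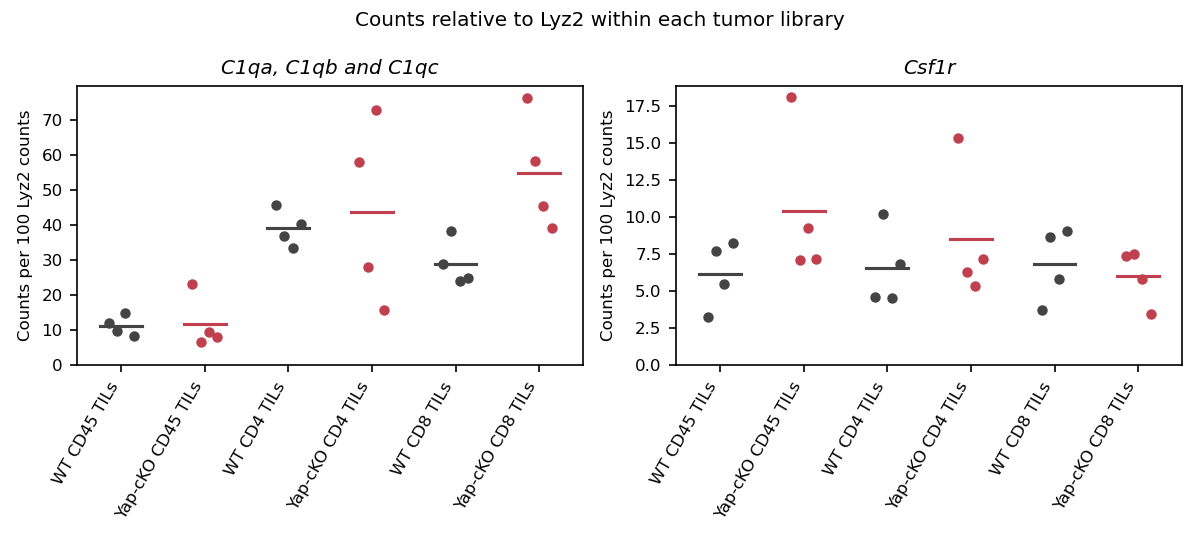
Counts of the C1q chains and of Csf1r per 100 Lyz2 counts in each tumor library, by sort and genotype. The C1q ratio is 24.0 to 38.3 in WT CD8 TILs and 8.34 to 14.9 in WT CD45 TILs, and the Csf1r ratio overlaps between these sorts.

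In CD8 TILs 6 of the 10 genes were called higher in Yap-cKO than in WT mice and 0 lower, beside 3.03% of all tested genes called higher. C1qa was at 13.3, 12.5, 23.5 and 10.8 CPM across the WT libraries and at 45.6, 130.2, 104 and 32.0 CPM across those of Yap-cKO mice (2.40, SE 0.456, adjusted p = 0.0185). C1qb was at 53.8, 29.5, 53.1 and 30.4 CPM across the WT libraries and at 127, 277, 261 and 101 CPM across those of Yap-cKO mice (2.21, SE 0.384, adjusted p = 0.0180). Neither gene overlapped between the groups, and C1qc was alike (2.20, SE 0.376). Mrc1 had the largest difference, from 7.11, 6.17, 2.95 and 1.73 CPM across the WT libraries to 14.0, 59.9, 22.8 and 13.5 CPM across those of Yap-cKO mice (2.65, SE 0.604, adjusted p = 0.0243). Adgre1 (1.96, SE 0.446) and Cd68 (1.53, SE 0.323) were the others called. Lyz2 was at 364, 163, 431 and 238 CPM across the WT libraries and at 330.2, 994, 1141 and 495 CPM across those of Yap-cKO mice, with overlap (1.33, SE 0.440, adjusted p = 0.0684, not called). Arg1 did not overlap, at 31.8, 4.79, 11.7 and 20.6 CPM across the WT libraries and 41.5, 47.5, 50.3 and 40.7 CPM across those of Yap-cKO mice, and was not called (1.41, SE 0.471, adjusted p = 0.0703). Csf1r (1.32, SE 0.457, adjusted p = 0.0761) and Ly6c2 (0.99, SE 0.476, adjusted p = 0.168) were not called.

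These calls depended on the libraries and on the scale. Without Yap-cKO CD8 TILs replicate 2 the count was 0, beside 0% of all tested genes called higher, and without WT CD8 TILs replicate 1, 2 or 4 it was 3, 2 and 3, beside 0.398%, 0.457% and 0.678%. A covariate for Y-linked expression left 0, again beside 0% of genes. Scaled on the 15 T cell genes in place of TMM, 0 were called (0.0425% of genes called higher) and the median of all genes shifted to -1.12. The 10 log2 fold changes then lay between 0.09 for Arg1 and 1.30 for C1qa. Relative to the summed T cell genes, the 9 genes other than Ly6c2 amounted to 33.4%, 13.5%, 11.7% and 8.62% in the WT CD8 TIL libraries and to 10.99%, 31.9%, 31.5% and 15.1% in the Yap-cKO ones, which overlapped. Markers of other cells also differed between these groups. In Yap-cKO CD8 TILs 10 of 10 endothelial, 6 of 8 tested fibroblast and 4 of 10 melanoma genes were called lower, beside 9.14% of all tested genes called lower. Endothelial genes summed to 85.0 to 1835 CPM in WT and 4.55 to 19.9 CPM in Yap-cKO mice. NK cell and pan-leukocyte genes differed in the same direction as the list, without overlap. NK cell genes summed to 66.7 to 217 CPM in WT and 249 to 401 CPM in Yap-cKO mice, with 2 of 7 tested called higher, and pan-leukocyte genes to 3594 to 8610 CPM and 10475 to 12346.5 CPM, with 3 of 12 called higher. Their part in the difference was not tested.

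**Figure D5:**
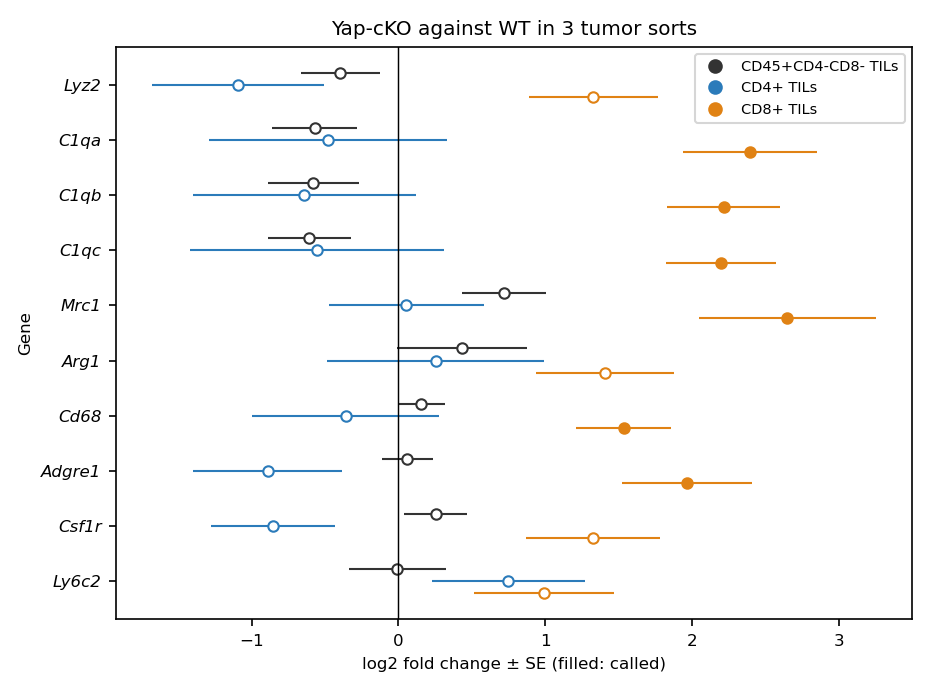
Log2 fold changes ± SE of Yap-cKO against WT for the 10 genes in CD45, CD4 and CD8 TILs, filled where called. The filled points, from Cd68 (1.53) to Mrc1 (2.65), are all in CD8 TILs and are lost when scaled on T cell genes.

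Of the other macrophage genes in CD8 TILs, 6 of 14 receptors and scavengers were called higher in Yap-cKO mice and 0 lower (median 1.52), led by Trem2, a lipid receptor (1.87, SE 0.322), and Msr1, a scavenger receptor (1.89, SE 0.333). Of all tested genes 3.03% were called higher and 9.14% lower. Of 12 lysosome and lipid genes Lpl (2.45, SE 0.313) and Ctss, a protease (1.27, SE 0.290), were called higher and Gpnmb (-2.79, SE 0.696) lower. Of 12 monocyte genes F13a1 (2.14, SE 0.560) and Ms4a4c (1.28, SE 0.361) were called higher. Of 12 tested signaling and transcription factor genes Cebpa, a myeloid factor, was called higher (2.24, SE 0.660, adjusted p = 0.0497) and Aif1 was not (1.52, SE 0.465, adjusted p = 0.0548). Of 11 tested activation genes Retnla, a mark of alternative activation, was called higher (6.83, SE 1.23) and Vegfa lower (-1.75, SE 0.328). Of 5 tested sinus and resident macrophage genes Folr2 was called higher (2.89, SE 0.553) and Lyve1 was not (3.00, SE 1.10, adjusted p = 0.0886). The calls of higher genes depended on the fit here too. Without Yap-cKO CD8 TILs replicate 2, and with the Y-linked covariate, 0% of all tested genes were called higher, so no listed gene was. Scaled on T cell genes, 0.0425% of all tested genes were called higher.

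In CD4 TILs 0 of the 10 genes were called between genotypes, beside 8.02% of all tested genes (6.66% called lower), with overlap for all 10. DESeq2 called 0, and by edgeR 0 had an unadjusted p under 0.05, beside 3482 of all 14205 tested genes. Yap-cKO CD4 TILs replicate 3 stood apart. C1qc was at 8.49, 7.84, 72.9 and 2.94 CPM in the Yap-cKO libraries and at 59.5, 20.8, 55.4 and 16.01 CPM in WT (-0.55, SE 0.863), and Cd68 was at 12.8, 15.5, 85.1 and 12.4 CPM in Yap-cKO and at 70.5, 32.9, 50.1 and 26.6 CPM in WT (-0.36, SE 0.638). Without that library 7 of the 10 genes were called lower in Yap-cKO CD4 TILs, beside 14.7% of all tested genes called lower. Scaled on T cell genes, where the median of all genes shifted to -1.15, 5 were called lower, beside 25.3% of all tested genes, led by Lyz2 (-2.72), and Arg1 (-1.53), Mrc1 (-1.43) and Ly6c2 (-0.36) changed sign.

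Of the pathway genes in CD4 TILs, the receptors Cd36 (-2.92, SE 0.529) and Mertk (-2.96, SE 0.650), the lysosomal Gpnmb (-2.89, SE 0.649), the monocyte gene Fn1 (-2.14, SE 0.379) and the activation genes Vegfa (-2.17, SE 0.365) and Spp1 (-2.29, SE 0.618) were called lower. Il10 (1.93, SE 0.490) and Csf1 (1.32, SE 0.334), the ligand of the receptor that Csf1r encodes, were called higher, and T cells can express both. Apoe (-2.07, SE 0.709, adjusted p = 0.102), Maf (1.02, SE 0.337, adjusted p = 0.0931), Plac8 (1.35, SE 0.408, adjusted p = 0.0702), Siglec1 (-1.25, SE 0.489, adjusted p = 0.145) and Fcna (-0.89, SE 1.19, adjusted p = 0.665) were not called. Of 10 melanoma genes 7 were called lower in the same comparison, and their part in it was not tested.

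Between the T cell sorts of Yap-cKO tumors, 5 of the 10 genes were called higher in CD8 than in CD4 TILs, beside 2.02% of all tested genes called higher. They were Lyz2 (2.55, SE 0.547, adjusted p = 0.0161), Mrc1 (3.04, SE 0.482), Adgre1 (3.27, SE 0.471), Csf1r (2.40, SE 0.463) and Ly6c2 (2.55, SE 0.481). C1qa (2.54, SE 0.759, adjusted p = 0.0868), C1qb (2.57, SE 0.688, adjusted p = 0.0520) and C1qc (2.36, SE 0.756, adjusted p = 0.117) were not called, and without Yap-cKO CD4 TILs replicate 3 the count was 9 of 10, beside 2.81% of all tested genes called higher. In WT tumors 0 of the 10 genes were called between CD8 and CD4 TILs, beside 0.448% of all tested genes. By edgeR 1 had an unadjusted p under 0.05, beside 774 of all 14942 tested genes. It was Ly6c2 (2.21, SE 0.484, adjusted p = 0.0778), and DESeq2 called 1 (1.23% of genes). A fit with a replicate block, whose numbers pair the libraries here, called 1 as well (0.816% of genes). Without WT CD8 TILs replicate 1 the count was also 1 (0.404% of genes).

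In TDLNs the CPM of the list in the T cell sorts was low. The 9 genes other than Ly6c2 summed to 12.3 to 16.6 CPM in WT CD4, 9.34 to 16.1 CPM in Yap-cKO CD4, 13.3 to 39.5 CPM in WT CD8 and 13.2 to 26.7 CPM in Yap-cKO CD8 TDLN cells. As a percent of the CD45 mean the median of these 9 genes was 2.72% in WT CD4, 2.23% in WT CD8, 13.2% in Yap-cKO CD4 and 39.5% in Yap-cKO CD8 TDLN cells. The Yap-cKO percentages stand on CD45 means of 1.02 CPM for C1qa, 0.247 CPM for Mrc1 and 0.945 CPM for Arg1, close to the floor. Mrc1 had at most 8 counts and Adgre1 at most 10 in any of these 16 libraries. Between genotypes 0 of 5 tested genes were called in CD4 TDLN cells (0.0462% of genes) and 0 of 6 in CD8 TDLN cells (0.0158% of genes), by edgeR and by DESeq2. By edgeR 1 and 0 of them had an unadjusted p under 0.05, beside 228 of 12992 and 120 of 12651 tested genes. The 1 was Csf1r (-1.44, SE 0.611).

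Between tumor and node T cell sorts, 3 of the 10 genes, Lyz2, Cd68 and Ly6c2, reached the count filter within the TDLN libraries alone. All 3 were called higher in CD4 TILs than in CD4 TDLN cells, in WT mice (22.9% of genes called higher) and in Yap-cKO mice (12.4% of genes). In CD8 cells Lyz2 and Cd68 were called higher in WT mice (22.5% of genes) and in Yap-cKO mice (10.9% of genes), and Ly6c2 was not. The other 7 genes passed the filter only through the TILs, where they were higher, so their calls are not counted here. Lyz2 was at 7.23, 7.78, 7.54 and 4.88 CPM in WT CD4 TDLN cells and at 394, 175, 474 and 148 CPM in WT CD4 TILs (5.43, SE 0.421). Markers of other cells were higher in the same tumor sorts, with melanoma genes at 11.99 to 17.8 CPM in WT CD4 TDLN cells and 5818 to 18096 CPM in WT CD4 TILs, and endothelial genes at 1.90 to 2.27 and 99.5 to 345 CPM. Their part in the difference was not tested. Scaled on T cell genes, the median of all genes shifted to 1.57 in WT CD4 and 1.70 in WT CD8 cells.

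Ly6c2 had another pattern in CD8 cells than the rest of the list. It was at 1034, 1533, 1392 and 661 CPM in WT and at 975, 794, 395 and 726 CPM in Yap-cKO CD8 TDLN cells, against 34.5 to 207 and 45.2 to 100.3 CPM in the CD45 sorts of the same nodes. The CD8 and CD45 libraries did not overlap. CD8 exceeded CD4 TDLN cells in WT (7.01, SE 0.588, adjusted p = 1.88e-05) and Yap-cKO mice (6.23, SE 0.519), and Ly6c2 was the 1 gene of the list called there, beside 3.54% and 2.77% of all tested genes. Its paralog Ly6c1 was at 68.7 to 137 CPM in WT CD4 and 1.04 to 1.81 CPM in WT CD8 TDLN cells, the reverse order. From CD8 TDLN cells to CD8 TILs the log2 fold change of Ly6c2 was -1.24, SE 0.470, adjusted p = 0.0503 in WT and 0.44, SE 0.319, adjusted p = 0.365 in Yap-cKO mice, neither called, and the WT value turned to 0.27 when scaled on T cell genes. In tumors the CD45 sort exceeded the mean of the T cell sorts in WT mice (1.59, SE 0.386) and was not called in Yap-cKO mice (0.75, SE 0.384, adjusted p = 0.143).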

How the data were processed

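RNA-seq was read from 48 libraries of sorted cells, 4 per group. Per the labels and the study's methods, cells were sorted into TRIzol LS, RNA was amplified with SMART-Seq v4 and sequenced in paired reads, and the authors checked reads with FastQC, trimmed them with Trimmomatic and quantified transcripts with Salmon 0.9.1. Deposited values are estimated counts per transcript and TPM (relative transcript abundance). The estimated counts were summed per gene over GENCODE M21 identifiers (111787 of 112092 transcripts matched, 34932 genes) and rounded. The summed TPM, which the authors' effective lengths correct for transcript length, served only to compare different genes' levels.

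Groups were tested with edgeR 4.0.16 (R 4.3.3), TMM scaling and a filter of 10 counts or more in 4 or more libraries of the fit. Alternatives used DESeq2 1.42.0, no filter, transcript length offsets, other scalings, a Y-linked covariate, a replicate block and single libraries left out. Of the fits, those between genotypes in CD45 TILs and in CD4 TILs were run on simulated counts. These had the same dispersion (spread beyond counting error) for every gene and no outlying library. Groups with an outlying library were therefore not covered. The members and lists were chosen with earlier results of these data known. All 10 members are named, with the 2 genes of smallest p per list in the main comparisons and the 10 most like genes, and other names (Abca1, Gpnmb and Spp1 where called) were chosen after their values were seen. A gene that this rule names is not reported here. Nothing in the labels ties libraries to separate mice, so p-values measure the spread between libraries, and counting limits cover counting error only. Same-numbered libraries were taken as paired only in the comparison of sorts in WT TILs, where the correlation of deviations was 0.115 to 0.735 over 12 pairs. In every other comparison the lowest such correlation was at most 0.0174, though its mean was 0.274 for the sorts in Yap-cKO TILs. Replicate 4 was the library with low Y-linked RNA in every WT group. Whether same-numbered libraries share a mouse was therefore not settled, and the main fits carry no block.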

Additional observations from a re-analysis of the deposited data

Results flagged for a closer look

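Within groups of 4, a library was set apart when its gap to the nearest other, divided by the range of the group, exceeded Dixon's 95% value. Of 110 groups tested 9 met this, and chance gives about 1 in 20. Yap-cKO CD4 TILs replicate 3 accounted for 4 of them, with C1qa at 40.8 CPM (next highest library 6.69), C1qb at 96.1 CPM (next 14.7), C1qc at 72.9 CPM (next 8.49) and Cd68 at 85.1 CPM (next 15.5). WT CD45 TDLNs replicate 4 accounted for 3, with Arg1 at 392 CPM (next 0.605), C1qb at 42.9 CPM (next 8.29) and Mrc1 at 6.73 CPM (next 0.691). Arg1 was at 3.69 CPM in WT CD4 TDLNs replicate 4 (next 0.287), and C1qa at 0.997 CPM in Yap-cKO CD8 TDLNs replicate 4 (next 0.292).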

How the results depend on the processing

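Counts of the 10 genes called between genotypes moved as follows. Where no share of all genes stands beside a count, the count is not set against all genes. In CD8 TILs the 6 calls (3.03% of all tested genes called higher) became 0 when scaled on T cell genes (0.0425%) and 0 with the Y-linked covariate (0%). They became 0 with the replicate block and 0 to 7 with single libraries left out. In CD4 TILs the 0 calls became 5 when scaled on T cell genes, where the share of all tested genes called lower went from 6.66% to 25.3%. With single libraries left out they became 0 to 7, and the share called lower was 14.7% without Yap-cKO CD4 TILs replicate 3. In CD45 TDLNs 0 became 6 with the Y-linked covariate (1.41% of all tested genes called lower). Between CD8 and CD4 sorts, 0 calls in WT TILs (0.448% of all tested genes) became 1 by DESeq2 (1.23%) and 1 with the replicate block (0.816%). They became 1 with no count filter and 0 to 1 with single libraries left out. In Yap-cKO TILs 5 calls (2.02% of all tested genes called higher) became 8 by DESeq2, 9 with the replicate block and 4 to 9 with single libraries left out. The share called higher was 2.81% without Yap-cKO CD4 TILs replicate 3. For Yap-cKO CD4 cells the number of calls between tissues moved because fewer genes were tested when any Yap-cKO CD4 TIL library was left out. The genes that dropped out had passed the count filter only through the 4 TIL libraries. Calls of genes that passed only through the TILs are not counted here. The other counts stayed within 1.5 times. Outside the sorts of WT TILs, same-numbered libraries were not positively correlated throughout, and whether they share mice was not settled. The cause of these changes was not tested.

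Log2 fold changes between genotypes that changed sign were as follows. In CD45 TILs these were Ly6c2 by DESeq2 (0.0042) and with no filter (0.0021), and, with the Y-linked covariate, Csf1r (-0.056) and C1qb (0.073). In CD4 TILs they were, when scaled on T cell genes, Arg1 (-1.53), Ly6c2 (-0.36) and Mrc1 (-1.43), with no filter Mrc1 (-0.066), and with the Y-linked covariate Arg1 (-0.0052) and C1qc (0.25). In CD4 TDLNs they were Arg1 with length offsets (0.46) and the replicate block (0.46), Ly6c2 with the block (-0.0902), and Lyz2 when scaled on T cell genes (0.19), with the Y-linked covariate (0.47) and with paralog reads (0.0721). In CD8 TDLNs they were Cd68 with length offsets (0.0011) and, with the Y-linked covariate, Csf1r (-0.026), C1qc (1.496), C1qb (1.18) and Lyz2 (0.74). The tissue effect on Ly6c2 in WT CD8 cells became 0.27 when scaled on T cell genes, a setting that moved the median of all genes to 1.70, and the value moved by less than that shift.

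With single libraries left out, sign changes gave these ranges. In CD45 TILs Adgre1 ran from -0.0095 to 0.21 and Ly6c2 from -0.32 to 0.24. In CD45 TDLNs Adgre1 ran from -0.94 to 0.22, Arg1 from -7.07 to 1.23 and Ly6c2 from -0.87 to 0.021. In CD4 TILs Arg1 ran from -0.46 to 0.78 and Mrc1 from -0.26 to 0.27, and in CD4 TDLNs Arg1 from -0.64 to 0.027, Ly6c2 from -0.39 to 0.34 and Lyz2 from -0.15 to 0.18. In CD8 TDLNs Cd68 ran from -0.49 to 0.0023, Csf1r from -0.12 to 0.32, C1qb from -0.44 to 0.0400 and Lyz2 from -0.54 to 0.29. The interaction ran from -0.15 to 1.08 for Adgre1, from -0.79 to 7.61 for Arg1 and from -0.0295 to 0.96 for Ly6c2.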
